A study of Mus musculus with 18 samples.

Results

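The IFIT and IFITM families were followed through 7 genes, chosen by name: Ifit1, Ifit2, Ifit3, Ifit3b, Ifitm1, Ifitm2 and Ifitm3. They were found by symbol among the 22612 genes of the EO771 table and by the Ensembl identifier of the symbol among the 55401 genes of the endothelial table, and all 7 were present in both. Ifitm1 had a mean value below 10 in each table and was not tested, which left 6 members tested in each. The 18 libraries formed 6 groups of 3. Blood endothelial cells (BECs, CD31high and PNAd-) came from the fat pad of tumour-free mice (BEC normal) or from the primary tumour (BEC tumour). High endothelial cells (HECs, CD31high and PNAd+) line the vessels through which lymphocytes enter lymph nodes, and came from the lymph node of tumour-free mice (HEC normal) or from tissue labelled as lymph node metastases (HEC tumour). The mice were wild-type C57BL/6 females, the tumours were grown from EO771, a mouse breast cancer cell line, and CD45+ cells had been gated out of all endothelial sorts. Cultured EO771 cells received vehicle (DMSO in saline) or 12-HETE, a lipid that arachidonate 12-lipoxygenase makes from arachidonic acid. EO771 is a single line in culture. BECs and HECs came from different tissues and digestions, so cell type and tissue cannot be told apart in any comparison between them. The study's legends call the sequencing replicates independent experiments, but the labels tie none to its own animal or culture, and p-values cover the spread between these libraries.

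IFIT proteins are tetratricopeptide repeat proteins of the cytosol that bind viral RNA or join complexes on it. Ifit1 binds RNA whose cap lacks a 2′-O methyl group, Ifit2 binds RNA and takes part in antiviral defence and cell death, and Ifit3 joins the other IFIT proteins. IFITM proteins are small membrane proteins that restrict the entry of enveloped viruses at the plasma membrane (Ifitm1) or in endosomes (Ifitm2 and Ifitm3). Type I and type III interferons induce these genes through the interferon-stimulated response element (ISRE), and endothelial cells respond to both type I and type II interferon.

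In GRCm38 the 4 IFIT members lie within 99.3 kb of chromosome 19, from 34550694 to 34650009, all on the plus strand. In that stretch the order is Ifit2 (34550694 to 34576419), Ifit3 (34583531 to 34588731), Ifit3b (34607970 to 34613401) and Ifit1 (34640871 to 34650009). The 3 IFITM members lie within 55.9 kb of chromosome 7, from 140954837 to 141010770, with Ifitm2 and Ifitm3 on the minus strand and Ifitm1 on the plus strand. Ifit3 and Ifit3b are near copies, with 99.1% identity over 1212 coding bases. Of the 100-base windows of the Ifit3 transcript, 31.7% occur unchanged in Ifit3b, so reads can be split between the genes and their sum is given beside them. Ifitm2 shares 40.9% of its exon bases with Gm45717 and its values are uncertain to that extent, since the strand used in counting is not stated.

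The ISRE was searched as GAAANNGAAA, on both strands, in the RefSeq window from 250 bases before to 50 bases after each transcription start (GRCm38.p6). It occurred in 3.44% of 32851 windows. Of the 7 members, 5 held it and 2 did not, Ifit2 (both RefSeq starts) and Ifitm1. Ifit1, Ifit3, Ifit3b and Ifitm3 held 2 matches each and Ifitm2 held 1. The stretches with the matches are shown because they are the element the families are known for, and they show how alike the Ifit3 and Ifit3b promoters are. ISRE matches are in capitals, and positions are counted from the start, with −1 the base before it.
Ifit1, chr19:34640749-34640888, plus strand, from −140 to −1: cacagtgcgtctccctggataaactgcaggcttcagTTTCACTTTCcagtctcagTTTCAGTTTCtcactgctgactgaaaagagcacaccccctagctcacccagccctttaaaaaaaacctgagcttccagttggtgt
Ifit3, chr19:34583329-34583528, plus strand, from −200 to −1: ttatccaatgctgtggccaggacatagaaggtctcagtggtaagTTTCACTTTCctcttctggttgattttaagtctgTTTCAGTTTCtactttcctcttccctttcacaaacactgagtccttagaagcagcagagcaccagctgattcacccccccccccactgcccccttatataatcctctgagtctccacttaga
Ifit3b, chr19:34607757-34607956, plus strand, from −200 to −1: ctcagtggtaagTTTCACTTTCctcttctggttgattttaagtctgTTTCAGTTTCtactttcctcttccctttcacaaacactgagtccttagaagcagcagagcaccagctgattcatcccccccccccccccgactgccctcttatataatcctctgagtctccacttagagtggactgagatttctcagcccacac
Ifitm2, chr7:140955962-140956061, minus strand, from −100 to −1: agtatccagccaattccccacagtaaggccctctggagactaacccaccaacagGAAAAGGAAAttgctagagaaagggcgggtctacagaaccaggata
Ifitm3, chr7:141010715-141010744, minus strand, from 1 to 30: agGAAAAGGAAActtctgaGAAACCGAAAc
The windows of Ifit3 and Ifit3b share an identical run of 169 bases that includes both matches, shifted by the position of the annotated start. Ifit1 and its neighbour Ifit1bl2 are transcribed away from each other, with 127 bases between their GENCODE starts, and the 2 matches upstream of Ifit1 are the same bases as the 2 in the Ifit1bl2 window. The gamma-activated site, searched as TTCNNNGAA, occurred in 8.3% of windows, among them those of Ifitm3, where it overlaps the second ISRE match, and the first start of Ifit2. A match is a description of letters and not evidence of binding.

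**Figure D1:**
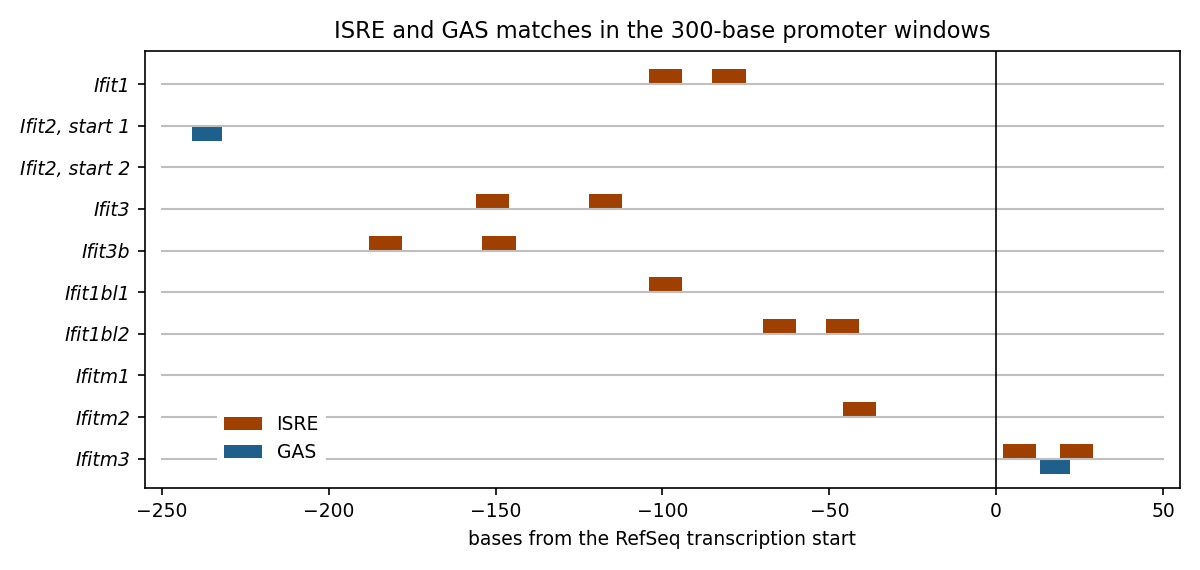
Positions of ISRE matches (GAAANNGAAA, brown, above each line) and GAS matches (TTCNNNGAA, blue, below each line) in promoter windows of the members and of Ifit1bl1 and Ifit1bl2, in bases from the RefSeq start. Both Ifit2 starts are shown, and for the other genes the first start listed. The 2 matches of Ifit3b have the spacing of those of Ifit3, and Ifit2 and Ifitm1 have no ISRE match.

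Libraries of the endothelial table summed to 56.4 to 79.4 M and those of the EO771 table to 17.3 to 18.6 M. Low endothelial values pile up at multiples of 3.70 to 3.76, so 1 unit is not 1 read there. A list of 8 endothelial markers summed to between 2330 and 3250 CPM (counts scaled to library size) in the endothelial libraries. A list of 4 high-endothelial markers summed to 970 to 1320 CPM in HEC normal, with Madcam1 at 0, to 2220 to 3050 CPM in HEC tumour and to at most 0.802 CPM in BECs. HEC normal replicate 2 stood apart with 4.07 normalised counts of Chst4, and HEC tumour replicate 3 with the lowest Fut7, 14300 normalised counts. Leaving both out changed no call of a member. BEC tumour libraries held markers of myeloid cells although CD45+ cells were gated out, and their values stand beside the results.

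In endothelium, Ifitm3 was the most abundant member per length in all 4 groups, and Ifit3 stood next to it in HEC normal, where Ifitm2 did so in the other 3. Levels between genes are compared as normalised values per kilobase of exon. In HEC normal the order was Ifitm3 (133793 ± 1066, SD, n = 3), Ifit3 (36917 ± 1396), Ifitm2 (25925 ± 753), Ifit3b (15027 ± 468), Ifit1 (4500 ± 109) and Ifit2 (3360 ± 243). In BEC normal Ifitm2 (38173 ± 2335 per kilobase) stood second and Ifit2 (474 ± 48.5) was last of the tested members. Between neighbours in the order of the tested members, libraries did not overlap in any of the 4 endothelial groups. Summed over the family and scaled to all values, IFIT transcripts made up 461 ± 6.62 CPM in BEC normal and 445 ± 6.06 CPM in BEC tumour. In HECs they made up 1753 ± 67.1 CPM in normal nodes and 343 ± 8.07 CPM in metastatic nodes. IFITM transcripts made up 1503 ± 94.0, 829 ± 90.1, 1578 ± 9.99 and 1061 ± 22.3 CPM in the same order. The IFIT sum of BEC tumour lay just below that of BEC normal, while the members behind it moved in different directions. These sums were not tested.

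**Figure D2:**
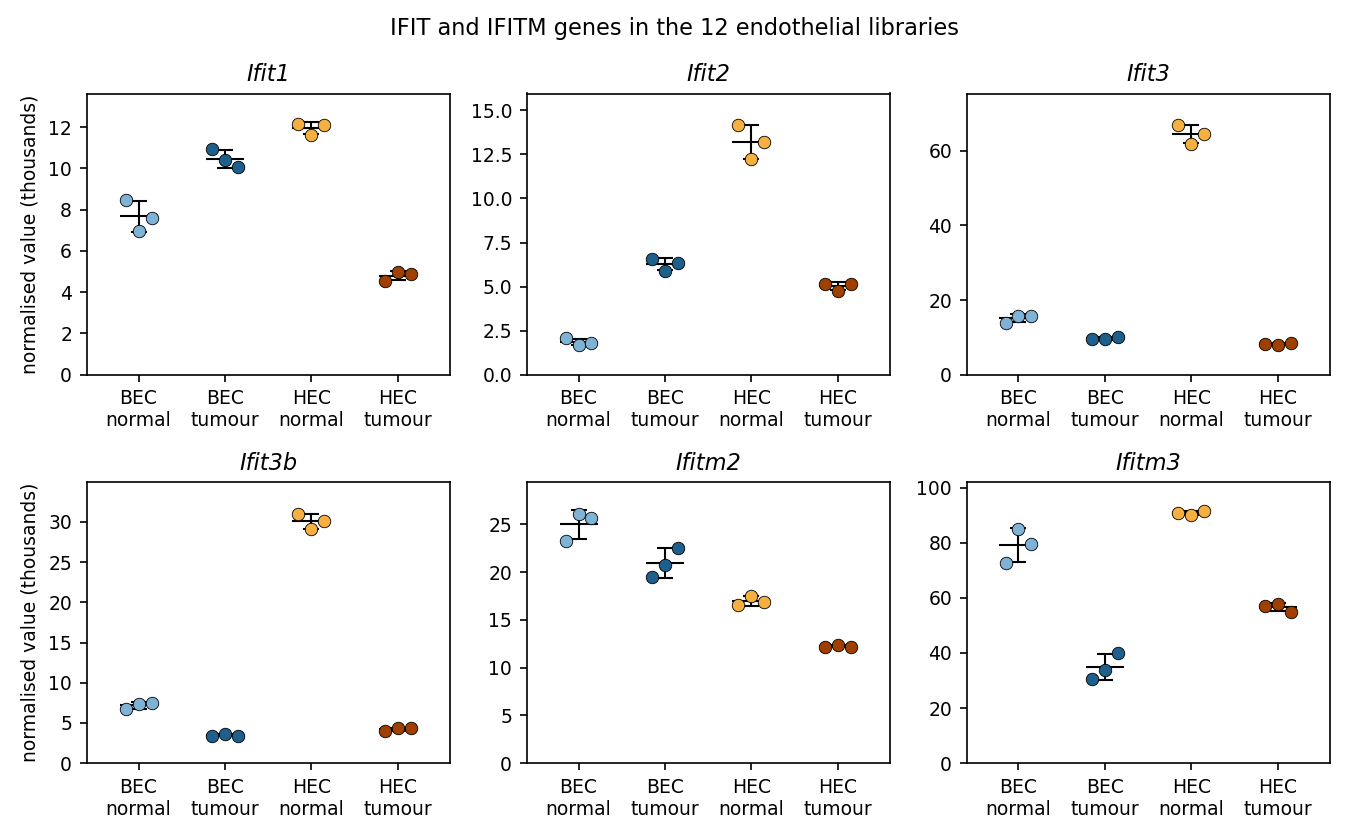
Normalised values (linear axis from 0) of the 6 tested members in the 12 endothelial libraries. Points are libraries, horizontal bars the mean and whiskers the SD of 3 libraries. Ifit1, Ifit2, Ifit3, Ifit3b and Ifitm3 have their highest mean in HEC normal, and Ifitm2 falls from BEC normal to HEC tumour in the order drawn.

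The first comparison asked how HECs of normal lymph node differ from BECs of normal fat pad. Ifit2, Ifit3 and Ifit3b were higher in HEC normal, by 4.19 to 7.08 fold, and no member was called lower. A call required an adjusted p under 0.05 (DESeq2 Wald test, Benjamini-Hochberg over all genes tested) and more than a 2-fold change. Of the 18511 genes tested, 17.1% were called higher and 15.1% lower in this comparison, against 3 and 0 of the 6 tested members. Ifit2 had normalised values of 2072, 1702 and 1810 in BEC normal and 14151, 12242 and 13196 in HEC normal. The HEC values all lay above the BEC values, with a log2 fold change of 2.82 ± 0.09 (SE, adjusted p = 7.3e-207). Ifit3 had 13946, 15813 and 15762 in BEC normal and 66841, 61969 and 64451 in HEC normal. The difference was 2.09 ± 0.06 on the log2 scale (adjusted p = 9.5e-239), with no overlap of the groups. Ifit3b followed with 7174 ± 432 and 30053 ± 936 (log2 fold change 2.07 ± 0.07, adjusted p = 3.4e-217), and the sum of both near copies gave 2.08 ± 0.06 (adjusted p = 1.1e-273).

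The remaining members differed by less than 2-fold between normal HECs and BECs. Ifit1 had 7686 ± 754 normalised counts in BEC normal against 11951 ± 289 in HEC normal (log2 fold change 0.64 ± 0.08, adjusted p = 2.1e-15 in DESeq2). Ifitm2 was 25003 ± 1529 in BEC normal and 16981 ± 493 in HEC normal (log2 fold change −0.56 ± 0.07, adjusted p = 2.2e-15). Ifitm3 had 79083 ± 6178 and 90711 ± 723, a difference of 0.20 ± 0.09 on the log2 scale with an adjusted p of 0.056 in DESeq2. The libraries of Ifitm2 and Ifitm3 did not overlap between the groups either, Ifitm2 being lower and Ifitm3 higher in every HEC library. How often the groups separate in this way over all tested genes was not counted, so such separation is a description only, here and below. Ifitm1 had at most 38 deposited units in any endothelial library and 0 in 5 of the 12, and no fold is given for it.

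Other interferon genes were read in 2 lists, 38 further antiviral effectors and 39 genes of interferon production and signalling, of which 31 were tested in endothelium. In HEC normal against BEC normal, 8 of the 38 effectors were called higher, 1 lower and 29 not called. Over all tested genes, 17.1% were called higher and 15.1% lower. The effectors had a median log2 fold change of 0.13 against 0.0046 over all genes. Rsad2, the radical enzyme viperin, stood at 67695 normalised counts in HEC normal against 3857 in BEC normal (log2 fold change 4.13 ± 0.07). Trim25, a ubiquitin ligase of RNA sensing, was also higher (1.59 ± 0.07), and Psmb8, an immunoproteasome subunit, was lower (−2.56 ± 0.16). Of the signalling list 1 gene was higher, the transcription factor Irf8 (2.14 ± 0.11), and 4 were lower, among them the receptor chain Ifnar1 (−1.37 ± 0.18). The signalling list had a median of −0.07. BEC normal libraries held 806 to 814 CPM of 7 fibroblast and pericyte markers, Acta2 foremost, against 25.2 to 26.1 CPM in HEC normal. The myeloid sum ran the other way, with 485 to 510 CPM in HEC normal against 114 to 136 CPM in BEC normal. Most of it was Cd68 (means 33300 against 7510 normalised counts), while Csf1r (25.7 against 226) and Cd14 (108 against 483) were lower in HEC normal. The epithelial sum was higher too, with 27.7 to 31 against 3.41 to 6.84 CPM. Most of that was Krt19 (1870 against 209), while Krt18 (132 against 139) and Epcam (2.04 against 7.42) were not higher. The part of those cells in these differences was not tested.

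The second comparison asked how HECs of metastatic nodes differ from HECs of normal nodes, and it held the strongest change of the family in endothelium. All 4 IFIT members fell and neither tested IFITM member was called. In this comparison 4.58% of tested genes were called higher and 3.21% lower, against 0 and 4 of the 6 members. Ifit3 had 66841, 61969 and 64451 normalised counts in normal nodes and 8172, 7880 and 8391 in HEC tumour. The tumour values were lower in every library, by 2.98 ± 0.06 on the log2 scale or 7.91 fold, and the adjusted p in DESeq2 was too small to represent. Ifit3b fell by 2.83 ± 0.07, from 30978, 29107 and 30074 to 4031, 4369 and 4319. By the Wald statistic these near copies were the 2 most strongly lowered of the 18511 genes tested, and by fold they stood at places 182 and 189 from the bottom. Their sum fell from 94474 ± 3372 to 12387 ± 281 (−2.93 ± 0.06). Fewer cells of a type and less RNA per cell cannot be told apart in such bulk libraries.

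Ifit1 and Ifit2 fell less. Ifit1 had 12138, 11618 and 12096 in HEC normal and 4548, 4975 and 4874 in HEC tumour, a log2 fold change of −1.32 ± 0.08 (adjusted p = 1.5e-60 in DESeq2). Ifit2 had 13196 ± 955 in HEC normal and 5033 ± 226 in HEC tumour (−1.39 ± 0.09, adjusted p = 3.1e-51). Ifitm3 was 90711 ± 723 and 56543 ± 1447 (−0.68 ± 0.09, adjusted p = 1.0e-11), and Ifitm2 was 16981 ± 493 and 12248 ± 138 (−0.47 ± 0.07, adjusted p = 1.3e-10). Both were lower in every tumour library, by less than 2-fold. Of the 38 effectors 26 fell, none rose and 12 were not called, where 3.21% of all tested genes were called lower and 4.58% higher. The effectors had a median log2 fold change of −1.21 against 0.02 over all genes. Oas3, which makes the second messenger of RNase L, fell by 3.00 ± 0.10 and Rsad2 by 2.02 ± 0.07 on the log2 scale. Of the 31 tested signalling genes 7 fell and none rose (median −0.35), among them Usp18 (−2.39 ± 0.09), which removes ISG15 and restrains the interferon receptor, and Dhx58 (−2.12 ± 0.10), which encodes the RNA sensor LGP2. Myeloid markers summed to 485 to 510 CPM in HEC normal and 357 to 375 CPM in HEC tumour, nearly all of it Cd68, and Adgre1 was at 0 in HEC tumour. Fibroblast and pericyte markers went from 25.2 to 26.1 CPM down to 10.7 to 11.8 CPM. The sum of the high-endothelial markers was higher in every HEC tumour library (2220 to 3050 CPM against 970 to 1320 CPM). Glycam1 (69700 to 71600 against 39100 to 40300 normalised counts) and Chst4 (59200 to 61200 against 4.07 to 20200) were higher in every library. Fut7 (14300 to 66500 against 27100 to 29600) was not, and Madcam1 had 0 to 16.6 against 0. The part of these markers in the fall of the IFIT genes was not tested.

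The third comparison set BECs of the primary tumour against BECs of the normal fat pad. Here the family split: Ifit2 rose, Ifit3b and Ifitm3 fell, and Ifit1, Ifit3 and Ifitm2 changed by less than 2-fold. Called shares over all genes were 12.4% higher and 10.8% lower, against 1 and 2 of the 6 members. Ifit2 had 2072, 1702 and 1810 normalised counts in BEC normal and 6556, 5885 and 6331 in BEC tumour, a log2 fold change of 1.75 ± 0.09 (adjusted p = 5.0e-79 in DESeq2). Every tumour library lay above every normal one. Ifitm3 had 72683, 85012 and 79554 in BEC normal and 30644, 33928 and 39822 in BEC tumour. It fell by 1.18 ± 0.09 on the log2 scale (adjusted p = 1.0e-34), the groups not overlapping. Ifit3b fell by 1.04 ± 0.07, from 7174 ± 432 to 3488 ± 172 (adjusted p = 1.7e-53). This call sits at the 2-fold limit: fitted on these 6 libraries alone the change came just inside it and Ifit3b was not called.

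The other members moved within 2-fold. Ifit3 was 15174 ± 1064 in BEC normal and 9704 ± 281 in BEC tumour (−0.64 ± 0.06, adjusted p = 3.2e-23 in DESeq2), and the sum of Ifit3 and Ifit3b gave −0.76 ± 0.06 (adjusted p = 9.5e-37). Ifit1 was 7686 ± 754 and 10472 ± 427 (0.45 ± 0.08, adjusted p = 5.5e-08), and Ifitm2 25003 ± 1529 and 20918 ± 1555 (−0.26 ± 0.07, adjusted p = 0.00050). Over all tested genes 10.8% were called lower and 12.4% higher. Of the 38 effectors 21 fell, 2 rose and 15 were not called (median −1.13 against 0.0083 over all genes). The 2 that rose were Rsad2 (2.24 ± 0.07) and Oasl1 (1.76 ± 0.50), a member of the OAS-like family, while Xaf1 (−1.55 ± 0.07) and the GTPase Mx2 (−2.07 ± 0.10) fell. Of the signalling genes 6 fell, among them Usp18 (−2.37 ± 0.09) and Dhx58 (−1.38 ± 0.10), and 1 rose, the endosomal RNA receptor Tlr7 (5.22 ± 1.35), with a list median of −0.44.

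Markers of other cells moved with these BEC results. The 7 myeloid markers summed to 1480 to 1980 CPM in BEC tumour and 114 to 136 CPM in BEC normal. Among them Ptprc, which encodes CD45, had 401 to 855 normalised counts in BEC tumour and 8.24 to 24.7 in BEC normal, Adgre1 had 1010 to 2510 and 0 to 4.06, and Lyz2 had 38200 to 61600 and 191 to 436. T cell markers summed to 21.8 to 40.7 CPM in BEC tumour and to at most 0.0517 CPM in BEC normal, where 4 of 5 were at 0. Nearly all of that sum was Cd4 (1410 to 2690 normalised counts), a gene that some myeloid cells also express, while Cd3d, Cd3e, Cd3g and Cd8a had at most 27 normalised counts in any BEC tumour library. The fibroblast and pericyte sum moved the other way, from 806 to 814 CPM down to 77.3 to 108 CPM. Most of it was Acta2 (means 43000 in BEC normal and 3270 in BEC tumour, normalised counts) and Col1a1 (8440 and 550). Dcn (181 and 481) and Lum (0 and 23.7) instead had higher means in BEC tumour. Epithelial markers rose from 3.41 to 6.84 CPM up to 18.9 to 87.6 CPM, unevenly between libraries. In BEC tumour Krt8 had 35.2 to 2240 and Krt18 97.4 to 1700 normalised counts. Krt18 thus overlapped BEC normal (86.4 to 187), while Krt19 (736 to 1080 against 143 to 277) did not. The part of these cells in the changes of Ifit2, Ifit3b and Ifitm3 was not tested.

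**Figure D3:**
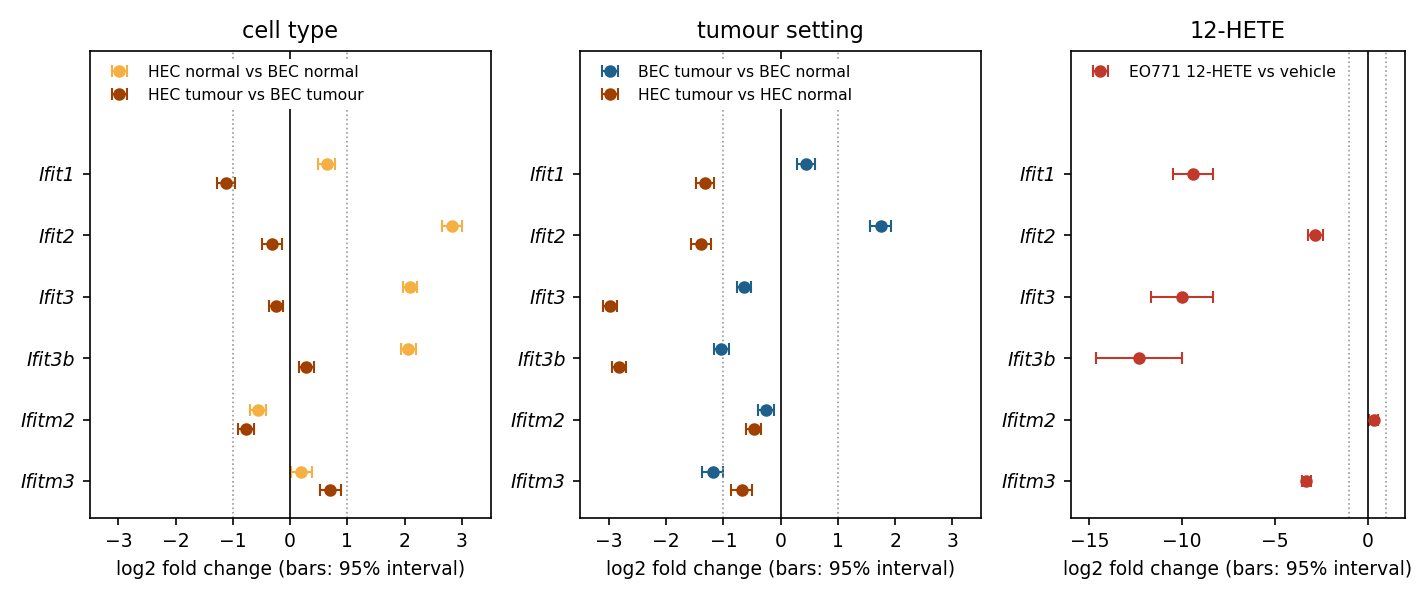
Log2 fold changes of the 6 tested members (points) with 95% intervals (bars) from DESeq2, for HECs against BECs (left), the tumour setting against normal (middle) and 12-HETE against vehicle (right, wider axis). Dotted lines mark a 2-fold change. Ifit1 and Ifit2 lie on opposite sides of 0 in the middle panel for BECs and HECs.

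The difference between the tumour-setting changes of HECs and BECs was tested as an interaction, the change in HECs less the change in BECs. All 4 IFIT members had a more negative change in HECs and neither tested IFITM member was called. Over all genes 11.1% were called with a positive and 12.1% with a negative interaction, against 0 and 4 of the 6 members. The interaction was −3.14 ± 0.13 for Ifit2 (adjusted p = 7.1e-129 in DESeq2), −2.34 ± 0.09 for Ifit3 (adjusted p = 7.5e-148), −1.79 ± 0.09 for Ifit3b (adjusted p = 7.0e-79) and −1.76 ± 0.11 for Ifit1 (adjusted p = 3.9e-55). For Ifit2 the changes ran in opposite directions, up in BECs and down in HECs. For Ifit1 they did so too, but the rise in BECs was under 2-fold, and for Ifit3 and Ifit3b both changes were downward and the fall was larger in HECs. The sum of Ifit3 and Ifit3b gave −2.17 ± 0.08 (adjusted p = 2.5e-147). Ifitm3 leaned the other way, with a smaller fall in HECs (0.50 ± 0.13, adjusted p = 0.00059), and Ifitm2 had −0.21 ± 0.10 (adjusted p = 0.058). Of the 38 effectors 8 were called with a negative interaction, among them Rsad2 (−4.26 ± 0.10) and Trim25 (−1.65 ± 0.10), and 1 with a positive one, Ifi27l2a (1.87 ± 0.26). The list median was −0.22 against −0.0016 over all genes. Of the signalling genes Ptpn2, a phosphatase, was called with a positive interaction (1.14 ± 0.10). Irf8 (−1.59 ± 0.15) and Stat2 (−1.41 ± 0.24) were called with negative ones, and the list median was −0.15. Genes not called include some with a low adjusted p and an interaction under 2-fold.

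**Figure D4:**
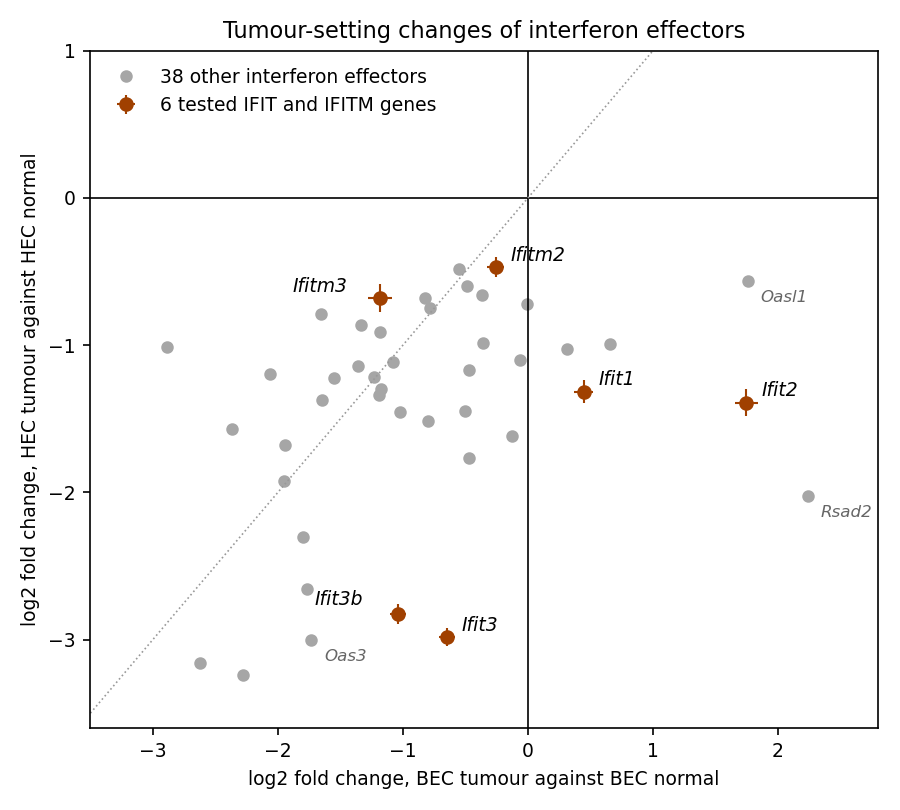
Log2 fold change in the tumour setting for BECs (horizontal) and HECs (vertical), which share no libraries. Grey points are the 38 other effectors, brown points the 6 tested members with bars of 1 standard error, and the dotted line marks equal change. Ifit2 lies to the right near Rsad2, with a rise in BECs and a fall in HECs, and Ifit3 and Ifit3b lie low, with falls of 2.98 and 2.83 in HECs.

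In the tumour setting, Ifit1 alone of the 6 tested members was called between HECs and BECs. HEC tumour against BEC tumour had 11.2% of genes called higher and 10.7% lower, against 0 and 1 of the 6 members. Ifit1 was lower in HEC tumour (4548, 4975 and 4874) than in BEC tumour (10924, 10415 and 10076), by 1.13 ± 0.08 on the log2 scale (adjusted p = 5.1e-45 in DESeq2), with no overlap of the groups. Ifit2 (−0.31 ± 0.09, adjusted p = 0.0014), Ifit3 (−0.25 ± 0.06, adjusted p = 0.00023) and Ifit3b (0.28 ± 0.07, adjusted p = 8.8e-05) differed by less than 2-fold. Since Ifit3 and Ifit3b lay on opposite sides, their sum had a log2 fold change of −0.09 ± 0.06 (95% interval −0.21 to 0.03, adjusted p = 0.19). Ifitm3 was higher in HEC tumour (0.70 ± 0.09, adjusted p = 9.8e-13) and Ifitm2 lower (−0.77 ± 0.07, adjusted p = 5.6e-28), both within 2-fold. Of the effectors 3 were higher in HEC tumour, among them the tetherin gene Bst2 (1.35 ± 0.10) and Mx2 (1.33 ± 0.10), and 1 was lower, Psmb8 (−1.69 ± 0.16), with a median of −0.13. Irf7, the factor that amplifies type I interferon (1.51 ± 0.14), and Socs1, an inhibitor of JAK kinases (1.24 ± 0.23), were higher and 4 signalling genes lower, among them Ifnar1 (−1.03 ± 0.18), with a median of −0.27. The myeloid markers differed here as well, 357 to 375 CPM in HEC tumour against 1480 to 1980 CPM in BEC tumour, and their part was not tested.

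The split between the near copies was itself measured as the share of Ifit3b in the sum of Ifit3 and Ifit3b. It was 32.4%, 31.8% and 32.2% in BEC normal and 31.7%, 32.0% and 31.8% in HEC normal, and these groups overlapped. It was 26.2%, 27.7% and 25.4% in BEC tumour and 33.0%, 35.7% and 34.0% in HEC tumour. A two-sided exact permutation test of 3 libraries against 3 cannot go below p = 0.1. The exact test gave p = 0.1 for BEC tumour against BEC normal (−5.67 percentage points), HEC tumour against HEC normal (2.41 points) and HEC tumour against BEC tumour (7.79 points), and p = 0.3 for HEC normal against BEC normal (−0.30 points). In EO771 vehicle libraries, counted in a separate table, the share was 62.9%, 63.8% and 64.5%. How reads that fit both copies were assigned in each table is not stated, so the levels of the share are not compared between the tables.

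Across the 12 endothelial libraries, Ifit3 and Ifit3b were closest to each other, with a root mean square difference of 0.204 between their log2 values centred on each gene's mean. This measure is a description over libraries that share their groups. Outside the family, of 13290 genes with a mean of at least 100 normalised counts, Oas3, Ifi208 and Gbp10 were most like Ifit3 (0.399 to 0.424), and Oas3, Ifi208 and Phf11d most like Ifit3b (0.278 to 0.383). For Ifit2 these were Eepd1, Pak1 and Arap1 (0.173 to 0.282) and for Ifit1 Castor2, Nusap1 and Arhgap17 (0.158 to 0.177). Ifitm3 was nearest to Gchfr, Nr2f6 and Kif26a (0.122 to 0.127). Within the IFIT family the same measure was 1.04 between Ifit2 and Ifit3 and 0.919 between Ifit1 and Ifit3.

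In cultured EO771 cells the question was what 12-HETE does to gene expression, and the 4 IFIT members and Ifitm3 fell with it, while Ifitm2 did not. Of the 11602 genes tested, 2.38% were called higher and 7.79% lower, against 0 and 5 of the 6 members. Ifit1 had 1421, 1974 and 2077 deposited counts in vehicle libraries and 2, 3 and 3 in 12-HETE libraries. Ifit3 had 1044, 933 and 1167 counts with vehicle and 1, 0 and 2 with 12-HETE, and Ifit3b had 1771, 1642 and 2118 and then 0, 1 and 0. The 3 genes were thus near the limit of detection in every 12-HETE library. Scaled to library totals, the ratio of vehicle to 12-HETE counts over 3 libraries each was 694 for Ifit1 (95% exact interval 352 to 1610), 1060 for Ifit3 (363 to 5160) and 5610 for Ifit3b (1010 to 222000). For the sum of Ifit3 and Ifit3b, 8675 counts against 4, it was 2200 (859 to 8080). These intervals cover counting error only, because the reads carry no molecular identifiers and 1 molecule can give several. Single libraries decide the ratios of Ifit3 and Ifit3b, since the 1 count of Ifit3b came from 12-HETE replicate 2 and 12-HETE replicate 3 held 2 of the 3 counts of Ifit3. Over the alternatives, leaving out 12-HETE replicates 2 and 3 included, the fitted log2 fold changes ran from −9.43 to −11 for Ifit3 and from −11.8 to −13.3 for Ifit3b, which are no bounds. The adjusted p-values in DESeq2 were 1.3e-65 for Ifit1, 1.6e-30 for Ifit3, 1.4e-23 for Ifit3b and 5.0e-49 for the sum.

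Ifit2 and Ifitm3 fell but stayed well detected. Ifit2 had 757, 855 and 1118 counts with vehicle and 127, 116 and 142 with 12-HETE, a log2 fold change of −2.82 ± 0.20 or 7.05 fold (adjusted p = 1.5e-44 in DESeq2). Ifitm3 had 10973, 12323 and 9123 counts with vehicle and 1063, 1181 and 991 with 12-HETE (−3.31 ± 0.12, 9.90 fold, adjusted p = 5.7e-154). Neither gene overlapped between the groups. Ifitm2 had 899, 803 and 728 counts with vehicle and 966, 1107 and 953 with 12-HETE. Its log2 fold change was 0.33 ± 0.12 (adjusted p = 0.017), under the 2-fold limit and upward. Per kilobase, Ifitm3 exceeded Ifitm2 with vehicle (15719 ± 1815 against 1222 ± 119 normalised counts, SD, n = 3), whereas with 12-HETE their libraries overlapped (1588 ± 140 and 1537 ± 119). Ifitm1 had 1, 3 and 0 counts with vehicle and 2, 0 and 0 with 12-HETE. The ratio of 4 counts to 2 was 2.03 (95% exact interval 0.291 to 22.4), so no difference was detectable at this depth. Summed per family, IFIT transcripts went from 313 ± 53.8 to 7.24 ± 0.706 CPM and IFITM transcripts from 643 ± 69.8 to 114 ± 9.69 CPM.

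**Figure D5:**
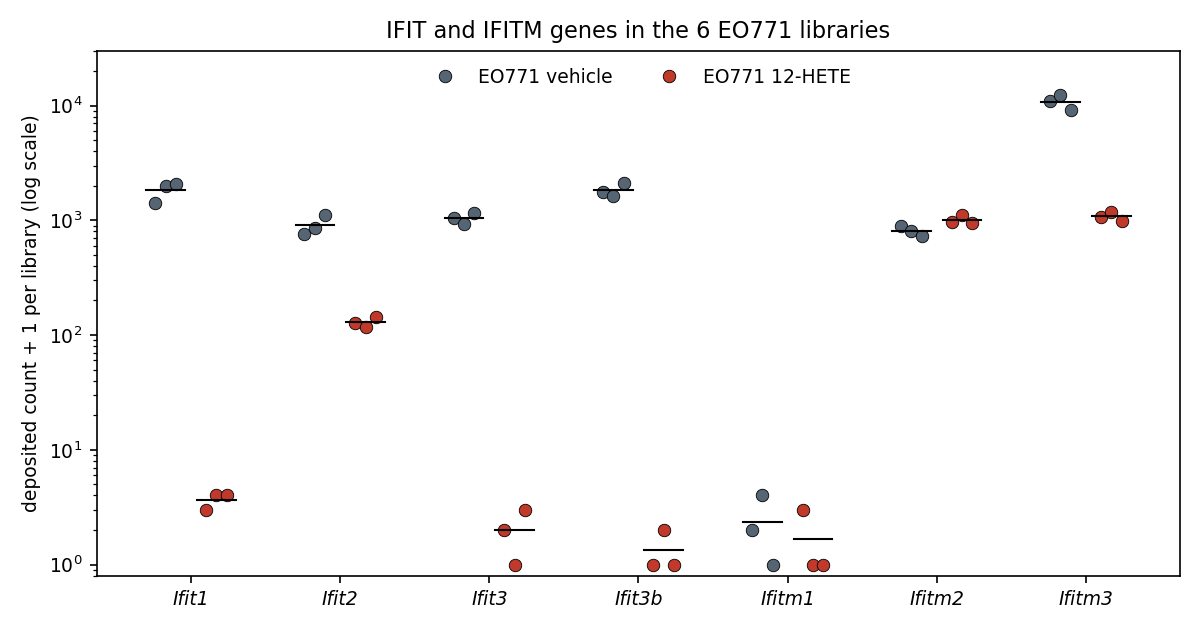
Deposited counts plus 1 (log axis) of the 7 members in EO771 libraries given vehicle (grey) or 12-HETE (red). Points are libraries and horizontal lines the mean of 3. Ifit1, Ifit3 and Ifit3b drop to at most 3 counts per library with 12-HETE, Ifit2 stays between 116 and 142, and Ifitm2 stays near its vehicle level.

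The fall of the IFIT genes was accompanied by that of most of the antiviral effectors. Of 38 effectors tested 36 fell, none rose, and 2 were not called, Samhd1 (−0.70 ± 0.12) and Gbp3 (−0.11 ± 0.13), named after their values were seen. Over all tested genes 7.79% were called lower and 2.38% higher. The median log2 fold change of the effectors was −4.12 against 0.0012 over all genes. The 1 gene at or under 3 counts over the 12-HETE group, Ifi44, lies far below that median. Setting Ifi44 at that floor left the median the same, and could not have moved it. Isg15, the ubiquitin-like modifier, went from 8663 to 28.8 normalised counts (−8.23 ± 0.19) and Xaf1 from 2969 to 74.1 (−5.32 ± 0.14). Of 28 signalling genes tested 11 fell and none rose (median −0.45), among them Usp18 (−4.73 ± 0.11) and Irf7, which went from 16385 to 72.5 normalised counts (−7.82 ± 0.18). Among these 28 the receptor chain Ifnar1 had 0.24 ± 0.09 (adjusted p = 0.023) and Ifngr1 −0.06 ± 0.11 (adjusted p = 0.69), and Jak1 had 0.23 ± 0.12 (adjusted p = 0.095) (also named after their values were seen). Epithelial markers summed to 3240 to 4250 CPM with vehicle and 2180 to 2240 CPM with 12-HETE, and fibroblast markers to 390 to 613 and 998 to 1040 CPM. Nearly all of the fibroblast sum was Dcn (means 9080 with vehicle and 18400 with 12-HETE, normalised counts). The part of these markers in the changes was not tested.

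Interferon ligands were near 0 in both tables. In EO771, Ifnb1 had 8, 14 and 15 counts with vehicle and 0, 3 and 2 with 12-HETE, and Ifnl3, a type III interferon, had 9, 20 and 16 and then 0, 0 and 0. Both had means below 10 and were not tested, and Ifng was at 0 in all 6 libraries. In endothelium Ifnb1 had at most 51.2 normalised counts in any library, with the values above 18.3 all in BEC normal, and Ifna4 had at most 38.8.

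The other genes of the families were Ifit1bl1, Ifit1bl2, Ifitm5, Ifitm6, Ifitm7 and Ifitm10. In EO771 Ifit1bl2, which shares its promoter window with Ifit1, had 138, 204 and 289 counts with vehicle and 0, 1 and 0 with 12-HETE, a ratio of 640 (95% exact interval 114 to 25300). Ifit1bl1 had 26, 36 and 47 counts with vehicle and 0, 0 and 0 with 12-HETE. With the 12-HETE group set at the floor of 3 counts its ratio was 36.9. The exact 95% interval from the observed counts reached down to a ratio of 29.5. Both genes were called in DESeq2 (adjusted p = 9.9e-13 for Ifit1bl2 and 2.2e-08 for Ifit1bl1). In endothelium the highest values in any library were 144 normalised counts for Ifit1bl1 and 297 for Ifit1bl2. Ifit1bl2 fell in BEC tumour (159 ± 35.2 to 78.9 ± 15.2, log2 fold change −1.02 ± 0.33, adjusted p = 0.0042). Its change in HEC tumour was also downward but under 2-fold (236 ± 60.5 to 125 ± 36.6, −0.92 ± 0.32, adjusted p = 0.014 in DESeq2). The interaction of Ifit1bl2 was 0.10 ± 0.46 (adjusted p = 0.89). Ifitm10 differed in direction between cell types: it rose in HEC tumour from 437 ± 13.2 to 905 ± 103 (1.05 ± 0.17, adjusted p = 1.1e-08) and fell in BEC tumour from 403 ± 53.9 to 181 ± 35.4 (−1.15 ± 0.18, adjusted p = 6.6e-10), with an interaction of 2.20 ± 0.25 (adjusted p = 8.1e-18). Ifitm5, a bone protein gene that shares exon bases with Gm45717, had at most 75.5 normalised counts in an endothelial library, with a mean of 16.9 in BEC normal and means of 46.4 to 56.7 in the other 3 groups. It was called higher in BEC tumour (1.66 ± 0.60, adjusted p = 0.013) and in HEC normal (1.77 ± 0.60, adjusted p = 0.0062) than in BEC normal, and its interaction was negative (−1.95 ± 0.84, adjusted p = 0.044). These Ifitm5 values are low. Libraries of HEC normal (25.4 to 75.5 normalised counts) overlapped those of BEC normal (8.82 to 30.6), while those of BEC tumour (39.8 to 59.3) did not. Ifitm6 and Ifitm7 were near 0.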

How the data were processed

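RNA sequencing was analysed for 18 libraries in 6 groups of 3 (BEC normal, BEC tumour, HEC normal, HEC tumour, EO771 vehicle and EO771 12-HETE), grouped by the sample titles. The authors aligned reads with STAR to GRCm38 and counted fragments per gene with featureCounts; whether strand was used in counting is not given in the sources used here. For EO771 reads the methods describe removal of duplicates with prinseq before alignment, without saying whether the counted reads are those; for endothelial reads no such step is described. Labels and methods name different library kits. The endothelial table deposited by the authors holds whole-number values used as estimated counts, because low values fall in steps of 3.70 to 3.76, and the totals divided by the step were 15.0 to 21.1 M. The EO771 table deposited by the authors holds raw counts per gene symbol. No per-sample column was left unmapped (0).

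Genes with a mean value of at least 10 were tested with DESeq2 1.42.0 in R 4.3.3. The filter, the tool and the thresholds follow the study's methods, and the DESeq2 version does not. There was 1 fit of 12 endothelial libraries and 1 of 6 EO771 libraries, with group as the only term, two-sided Wald tests and p-values adjusted by Benjamini-Hochberg over all genes tested. A gene was called at an adjusted p under 0.05 and a log2 fold change over 1 in size. Where the default dispersion trend could not be fitted, DESeq2 substituted a local one by itself. Normalised counts are counts divided by DESeq2 size factors, and errors are SD of 3 libraries or SE of a log2 fold change. The scripts were tested on simulated data. Alternatives were edgeR 4.0.16 (quasi-likelihood, TMM), TMM factors in DESeq2, no filter, replicate number as a block, endothelial values divided by their step, fits of the 6 libraries compared, and leaving out each library. Leaving out both HEC libraries that stood apart was chosen after seeing the data. Deviations from the group means of libraries with the same replicate number correlated weakly in endothelium, at −0.03 to 0.13. All 3 libraries correlated best with their own number between BEC normal and HEC normal, BEC tumour and HEC tumour, and HEC normal and HEC tumour. For the other pairs of endothelial groups 2, 1 and 0 did, so whether the numbers pair those libraries is not settled. In EO771 the correlations were 0.11 to 0.33 over 3 pairs, where the pairing comes from the data and not from the labels. No 2 libraries of a group agreed within sampling noise. The chi-square per degree of freedom between 2 libraries of a group was 13.4 to 27 in endothelium. In EO771 it was 16.5 to 46.3 with vehicle and 2.39 to 2.72 with 12-HETE, so these groups, fitted together, differed in spread.

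The members, the interferon and marker lists and the tests were chosen with earlier results of these data known. Named genes were the 7 members and the Ifit3 and Ifit3b sum, the other genes of the families, interferon ligands, up to 2 genes per list, direction and comparison with the largest Wald statistic among those called, the 3 genes of most similar pattern per member, and defining markers. Some genes that this rule names, and the genes of most similar pattern to Ifitm2, are not reported here. Promoter windows are from RefSeq (GRCm38.p6) and gene models from GENCODE. Protein sequences were not used here.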

Additional observations from a re-analysis of the deposited data

Results flagged for a closer look

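The change in the tumour setting differed between HECs and BECs, by the interaction term of the 12-library DESeq2 fit, for Ifit1 (−1.76), Ifit2 (−3.14), Ifit3 (−2.34), Ifit3b (−1.79) and the sum of Ifit3 and Ifit3b (−2.17), each on the log2 scale as the change in HECs less that in BECs. In all 5 the change in HECs was the more negative one. Ifit2 was higher in all 3 BEC tumour libraries than in any BEC normal library and lower in all 3 HEC tumour libraries than in any HEC normal library. BEC tumour libraries also held 1480 to 1980 CPM of myeloid markers against 114 to 136 CPM in BEC normal, and the part of those cells in the difference was not tested.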

How the results depend on the processing

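Of the counts of members called under the alternatives, 159 stayed within 1.5 times the value given and 1 did not. In the fit of the 6 libraries compared, 1 member and not 2 was called lower in tumour BECs, because Ifit3b came just inside the 2-fold limit. No member or sum changed direction under any alternative, and edgeR called the same numbers of members as DESeq2. The number of signalling genes called higher in normal HECs than in normal BECs was 2 in place of 1 with edgeR and with TMM factors in DESeq2, and ran from 1 to 2 when single libraries were left out, with 2 without BEC normal replicate 2 and without BEC normal replicate 3. The number of effectors lower in HEC tumour than in BEC tumour ran from 1 to 2 in the same way, with 2 without BEC tumour replicate 2. Over all genes of EO771, 511 in place of 276 were called higher without EO771 vehicle replicate 3, which took the share of calls that were higher from 23.4% to 35.1%, and no other alternative moved a count over all genes by more than 1.5 times. The cause of these shifts was not tested. With the replicate number as a block, the sum of members called lower stayed at 4 in HEC tumour against HEC normal. It stayed at 4 for the interaction and at 5 in EO771, and the block changed no other call of a member. Whether the numbers pair the endothelial libraries is not settled. The Ifit3b share in the sum moved by less than the SD between replicates when any 1 library was left out (5.17 to 6.3 points lower in tumour BECs). Depth limits Ifit1, Ifit3, Ifit3b and Ifitm1 in 12-HETE libraries, which hold at most 3 counts of each.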
